A study of Mus musculus with 29 samples.

Results

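The comparison described here set induced regulatory T (Treg) cultures that received a guide RNA against Smad2 (sgSmad2, 2 libraries) against Treg cultures with no guide RNA (control, 2 libraries). These are 4 of the 29 samples of a mouse study that asked what Smad2 and Smad3 do for the expression of Acsl6, a long-chain acyl-CoA synthetase gene. All groups came from splenic naive CD4 T cells of C57BL/6 mice, kept in culture for 5 days, with 15 ng/ml of interleukin-2 and 10 ng/ml of human TGF-beta. The other 4 libraries of the same experiment, 2 with a guide against Smad3 (sgSmad3) and 2 with both guides (sgSmad2/3), entered the same fit, so they contribute to the estimate of the spread behind every SE, interval and p below, and their own values are given only beside those of sgSmad2. The labels give neither the sequences of the guides nor the way in which guide and nuclease were delivered, and they do not say whether the control cultures received a nuclease or an unrelated guide. The effect of the Smad2 guide and the effect of receiving any guide therefore cannot be told apart in sgSmad2 against control. Nor do the labels tell whether a replicate was a mouse or a culture of its own, so p-values rest on a spread between libraries that may be only technical.

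Expression was read as tags near the 3′ ends of transcripts, in reads per 1000000 counted reads (CPM), which the authors rounded to whole numbers. An unnamed last line of the deposited values was taken as the worth of 1 read, which was not checked for these libraries. By it the 4 libraries held 1541289 and 1433268 reads (control) and 1512629 and 1493190 reads (sgSmad2). On that basis 3 reads, the level that a count of 0 allows, came to between 1.95 and 2.09 CPM. This covers counting error only. A gene entered the comparison if 2 or more of the 4 libraries held it at 5 CPM or above, as 10190 of 55421 genes did. At the edge of that rule, 448 kept genes had a second-highest value of 5 CPM and 336 genes left out had one of 4 CPM. The control and sgSmad2 libraries that carry replicate number 1 had a Pearson r of 0.9716 over genes, above that of the 2 control libraries (0.9634). Genes that define CD4 T cells were measured throughout, with 12 of the 12 on the list kept and a summed level of 3886 and 4609 CPM in control and 3745 and 4861 CPM in sgSmad2. Cd4 itself read 104 and 200 CPM in control and 80 and 123 CPM in sgSmad2.

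Smad2 and Smad3 are the receptor-activated Smads of the TGF-beta pathway: the activated receptor phosphorylates them, they join Smad4 and move to the nucleus, and there they act on genes together with other transcription factors. Smad3 and Smad4 bind short DNA motifs directly, whereas the common form of Smad2 binds DNA poorly on its own. In naive CD4 T cells this pathway, together with interleukin-2, induces Foxp3, the transcription factor that defines Treg cells, and holds down genes of effector and cytotoxic cells. Smad7, Ski, Skil and Smurf proteins limit the pathway.

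Promoters are shown for 3 genes that the results turn on: Myo6, the gene called in sgSmad2 against control, Neurl3, the gene with the smallest p among those with lower values, and Acsl6, the gene the study asked about. Each run is 300 bases of RefSeq sequence on GRCm38.p6, from 250 bases before to 50 bases after a transcript start, on the gene's strand. Capitals mark CAGAC, the short motif that Smad3 and Smad4 bind, or its reverse complement GTCTG.
Myo6 (chr9:80164784-80165083, plus strand): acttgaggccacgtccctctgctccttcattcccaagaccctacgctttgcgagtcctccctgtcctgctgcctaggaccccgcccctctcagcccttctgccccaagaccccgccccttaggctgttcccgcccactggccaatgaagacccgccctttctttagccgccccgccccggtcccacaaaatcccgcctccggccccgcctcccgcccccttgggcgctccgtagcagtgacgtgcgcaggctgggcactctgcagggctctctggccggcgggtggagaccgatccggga
Neurl3 (chr1:36273376-36273675, minus strand): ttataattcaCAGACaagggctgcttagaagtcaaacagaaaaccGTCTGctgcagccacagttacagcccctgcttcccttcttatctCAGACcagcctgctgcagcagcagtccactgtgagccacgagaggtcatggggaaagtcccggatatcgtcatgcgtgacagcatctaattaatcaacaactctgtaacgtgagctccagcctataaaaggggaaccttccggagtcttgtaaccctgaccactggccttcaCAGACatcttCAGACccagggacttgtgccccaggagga
Acsl6 (chr11:54303574-54303873, plus strand, the first of 3 listed starts): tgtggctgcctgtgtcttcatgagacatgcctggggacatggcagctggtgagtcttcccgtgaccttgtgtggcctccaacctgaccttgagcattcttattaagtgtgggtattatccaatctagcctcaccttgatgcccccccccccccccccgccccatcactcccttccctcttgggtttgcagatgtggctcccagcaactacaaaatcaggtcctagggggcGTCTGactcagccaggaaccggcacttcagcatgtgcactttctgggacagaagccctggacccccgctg
The Myo6 window held 0 matches, the Acsl6 window 1 and the Neurl3 window 5, of which 4 read CAGAC and 1 GTCTG. The Neurl3 window lies inside the gene, which on the minus strand begins at 36274674, so it need not be the main promoter. A motif of 5 letters is frequent: 16110 of 32544 promoters of this length (49.5%) held at least 1 match on either strand. Among the 10 genes named below for higher values, 5 had a promoter in the table and 4 of these held the motif, and among the 10 named for lower values 6 of 10 did. A match is a stretch of letters and no measured binding.

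Smad2, the targeted gene (ENSMUSG00000024563, chromosome 18, 76241090 to 76311748), was read at 37 and 29 CPM in control and at 12 and 24 CPM in sgSmad2. Both sgSmad2 values lay below both control values. The mean fell from 33.0 ± 5.66 to 18 ± 8.49 CPM (SD, n = 2 each), a log2 change of -0.91 (SE 0.32, 95% interval -1.59 to -0.22), which did not pass adjustment over all genes (limma adjusted p = 1). Two-sided exact permutation of 2 against 2 libraries cannot go below p = 0.333. The 2 sgSmad2/3 libraries read 13 and 18 CPM and the 2 sgSmad3 libraries 25 and 30 CPM. The 4 libraries that received a Smad2 guide were also set against the 4 that did not, a grouping added after the values were seen. Their level was 16.75 ± 5.50 against 30.25 ± 4.99 CPM (SD, n = 4 each), or 55.4% of the level without the guide. The ranges did not overlap (12 to 24 against 25 to 37 CPM). An exact two-sided permutation gave p = 0.0286, the smallest that 70 splits can give. Any such grouping without overlap gives this p, so it adds no support beyond the ranges. Where the guide cuts is not given in the sources used here, so these 3′ tags may lie outside the edited part, and they do not measure protein.

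Smad3, the paralog that shares most partners with Smad2, read 30 and 34 CPM in control and 44 and 56 CPM in sgSmad2. Its sgSmad2 values were the higher ones in both libraries, with a log2 difference of 0.62 (SE 0.23, 95% interval 0.13 to 1.11; limma adjusted p = 1). Smad4, the shared partner, read 69 and 77 CPM against 75 and 86 CPM (0.14, interval -0.29 to 0.57). Smad7, the inhibitory Smad that TGF-beta induces, read 152 and 190 CPM in control and 132 and 175 CPM in sgSmad2, and the groups overlapped (-0.16, interval -0.57 to 0.25). Smad1, a Smad of the bone morphogenetic protein branch, had 20 and 15 CPM against 26 and 27 CPM. Of the 15 kept genes among 19 Smads and partners, 5 had both sgSmad2 values above both control values and 2 had both below, with a median log2 change of 0.058, where 13.7% of all kept genes were higher and 11.2% lower in this sense. None but the targeted gene and its 2 relatives Smad3 and Smad1 had an unadjusted limma p under 0.05, and none passed adjustment.

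Acsl6 (ENSMUSG00000020333, chromosome 11, 54303805 to 54364756) read 75 and 68 CPM in control and 82 and 78 CPM in sgSmad2. The sgSmad2 values were slightly above those of the control. The means were 71.5 ± 4.95 and 80.0 ± 2.83 CPM (SD, n = 2 each), a log2 difference of 0.16 (SE 0.22, 95% interval -0.30 to 0.62; limma adjusted p = 1). In the sgSmad3 libraries the same gene read 27 and 27 CPM, and in the sgSmad2/3 libraries 31 and 43 CPM. The difference between the single guides was itself tested: Acsl6 was higher in sgSmad2 than in sgSmad3 by 1.53 on the log2 scale (95% interval 1.07 to 1.99; limma adjusted p = 0.028). A change of Acsl6 with the Smad2 guide was thus not detectable at this spread, and the interval bounds a fall at -0.30 on the log2 scale. Acsbg1, the bubblegum acyl-CoA synthetase gene in the title of the study, read 69 and 63 CPM in control and 54 and 86 CPM in sgSmad2, with the control values inside the range of the sgSmad2 values (0.05, interval -0.44 to 0.54). For Acsbg1 the single guides differed by 0.56 (limma adjusted p = 0.49).

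Foxp3 read 177 and 320 CPM in control and 214 and 393 CPM in sgSmad2. The groups overlapped, and the libraries that carry replicate number 2 held more Foxp3 than those that carry number 1 in both groups (log2 difference between groups 0.28, 95% interval -0.29 to 0.86, limma adjusted p = 1). Of 24 kept Treg core genes among 29, 7 had no overlap and higher values in sgSmad2 (29.2%, against 13.7% of all kept genes) and 0 had lower ones (0%, against 11.2%), and the median log2 change was 0.16, beside 0.012 over all kept genes. The 7 included Gpr83, a G protein-coupled receptor of Treg cells, at 41 and 52 CPM in control and 60 and 70 CPM in sgSmad2, and Icos, a costimulatory receptor, at 77 and 88 CPM against 101 and 107 CPM. Ikzf2, which encodes Helios, read 152 and 167 CPM against 171 and 241 CPM. None of the 24 passed adjustment. The median of this list was 0.32 without sgSmad2 replicate 1, 0.035 without control replicate 1 and -0.0080 without sgSmad2 replicate 2, so its direction depended on 1 library.

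**Figure D1:**
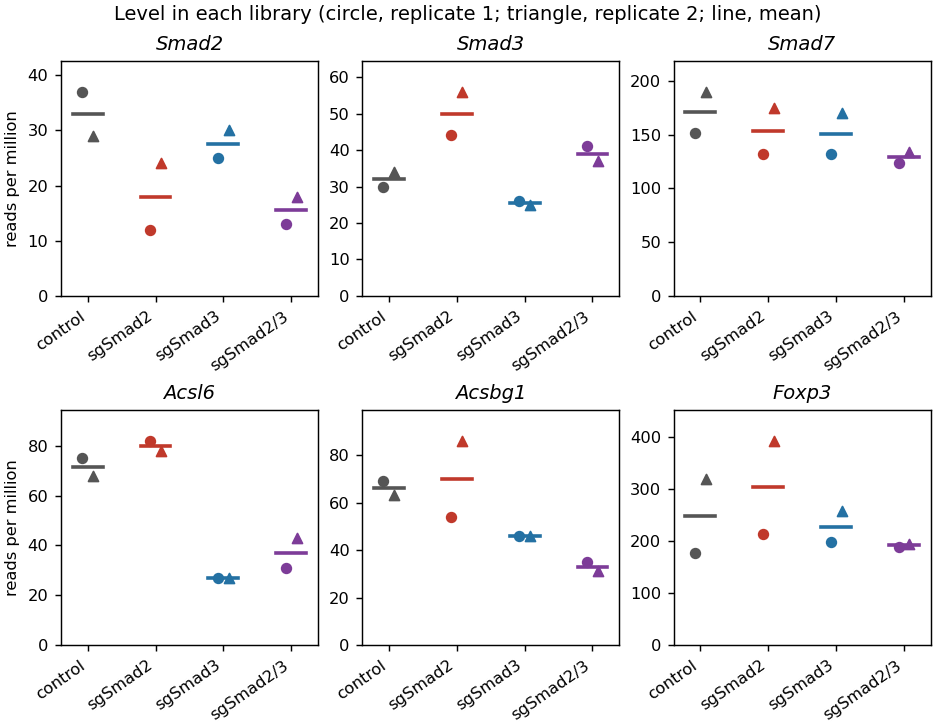
Level of 6 genes in each library of the Smad experiment, in CPM, with circles for replicate 1, triangles for replicate 2 and lines for group means. Smad2 is lowest where a Smad2 guide was present, and Acsl6 stands at 82 and 78 CPM in sgSmad2 but at 27 and 27 CPM in sgSmad3.

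Across all kept genes, 1 gene was called higher in sgSmad2 than in control (0.00981%) and 0 were called lower (0%) by limma at an adjusted p under 0.05. At an unadjusted p under 0.05, 188 genes were higher (1.84%) and 141 lower (1.38%), together 329 (3.23%), where chance alone would give about 510. The called gene was Myo6 (ENSMUSG00000033577, chromosome 9, 80164976 to 80311729), which encodes myosin VI, an actin motor that moves towards the minus end of filaments. Myo6 read 69 and 70 CPM in control and 159 and 183 CPM in sgSmad2. The 2 groups were far apart compared with the spread inside each (69.5 ± 0.707 and 171 ± 17.0 CPM, SD, n = 2 each). Myo6 rose by 1.28 on the log2 scale (SE 0.18, 95% interval 0.90 to 1.67; limma adjusted p = 0.0295), or 2.43-fold. The call was lost when the 4 libraries were fitted alone (0 genes called) and without any 1 of the 4 libraries (adjusted p 0.0697 without sgSmad2 replicate 1, 0.357 without sgSmad2 replicate 2, 0.78 without control replicate 1 and 0.643 without control replicate 2). With the Smad3 guide Myo6 read 180 and 171 CPM, and the difference between the single guides was -0.04 (interval -0.43 to 0.35).

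**Figure D2:**
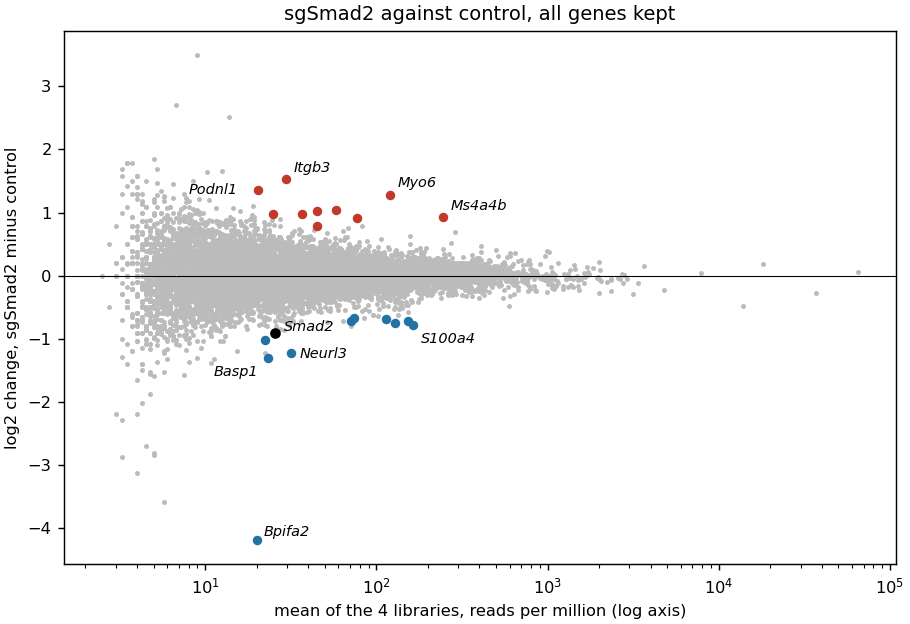
Log2 change of sgSmad2 against control for the 10190 kept genes (vertical axis) by their mean level over the 4 libraries in CPM (horizontal log axis), with the named higher genes in red, the named lower genes in blue and Smad2 in black. Most genes lie close to 0 at high levels and scatter at low levels, and Myo6 stands out at a change of 1.28.

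The 9 other genes named for higher values had the smallest p among genes with no overlap and a mean of at least 20 CPM, and none of them was called. Itgb3, the integrin beta 3 chain that pairs with integrin alpha V, read 14 and 15 CPM in control and 34 and 56 CPM in sgSmad2. Both sgSmad2 values were well above both control values. Its log2 difference was 1.53 (SE 0.25, 95% interval 0.999 to 2.06; limma adjusted p = 0.0768), a 2.88-fold difference. The Smad3 guide gave 44 and 42 CPM and both guides 88 and 106 CPM, and sgSmad2 and sgSmad3 differed by 0.02 (interval -0.51 to 0.55). Ms4a4b, a membrane protein of T cells whose reads may be shared with close relatives of its family, read 170 and 165 CPM in control and 362 and 284 CPM in sgSmad2 (0.93, limma adjusted p = 0.248). Podnl1, a leucine-rich repeat protein of the extracellular matrix, read 12 and 10 CPM against 30 and 29 CPM (1.35, limma adjusted p = 0.248). Podnl1 was nearer to the control with the Smad3 guide, at 16 and 18 CPM, and sgSmad2 exceeded sgSmad3 by 0.76 with an interval of 0.20 to 1.33. That difference did not pass adjustment (limma adjusted p = 0.416), and the sgSmad2 values by which Podnl1 was chosen also enter it.

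The other 6 genes had larger p. Trat1, an adaptor bound to the T cell receptor, read 25 and 24 CPM in control and 50 and 48 CPM in sgSmad2. Pecam1 (CD31), an adhesion receptor of naive T cells, read 54 and 52 CPM against 85 and 119 CPM. Itga7, an integrin alpha chain that binds laminin, read 16 and 17 CPM against 31 and 36 CPM. In Trat1 and Itga7 the libraries of a group lay close together relative to the gap between groups, whereas the 2 sgSmad2 values of Pecam1 lay further apart than the groups. Pdlim4, a cytoskeletal adaptor, read 32 and 41 CPM against 57 and 101 CPM, and Mboat1, a lysophospholipid acyltransferase, 35 and 30 CPM against 67 and 48 CPM. Gm23639, a gene annotated as a small nucleolar RNA, read 26 and 33 CPM against 56 and 66 CPM.

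By the same rule 10 genes were named for lower values, and none was called. Neurl3 (ENSMUSG00000047180, chromosome 1, 36264602 to 36274674), an E3 ubiquitin ligase of the neuralized family, read 37 and 53 CPM in control and 17 and 20 CPM in sgSmad2. Its sgSmad2 values were well under both control values, 2.33-fold on the scale of the fit. The log2 difference was -1.22 (SE 0.27, 95% interval -1.80 to -0.64; limma adjusted p = 0.563). S100a4, a calcium-binding protein of activated and memory T cells, read 229 and 188 CPM in control, 128 and 112 CPM in sgSmad2, 258 and 179 CPM in sgSmad3 and 146 and 125 CPM in sgSmad2/3. The 4 libraries with a Smad2 guide were thus all lower than the 4 without. The S100a4 difference from control was -0.79 (interval -1.20 to -0.37; limma adjusted p = 0.719) and that from sgSmad3 -0.84 (interval -1.25 to -0.42; limma adjusted p = 0.22). The sgSmad2 values by which S100a4 was chosen enter both differences.

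Cd96, an immunoglobulin-family receptor of T and NK cells, read 102 and 81 CPM in control and 58 and 56 CPM in sgSmad2. Tjp1, the tight junction scaffold ZO-1, read 32 and 29 CPM against 15 and 14 CPM, and 7 and 11 CPM with both guides. Gprin3, a regulator downstream of G proteins, read 149 and 134 CPM against 89 and 85 CPM. Tjp1 and Gprin3 varied little within a group, whereas the control values of Cd96 lay nearly as far apart as the groups. Basp1, a protein of the inner face of the plasma membrane, read 36 and 31 CPM against 15 and 11 CPM. Strbp, an RNA-binding protein, read 180 and 201 CPM against 130 and 103 CPM. Akr1c13, an aldo-keto reductase, read 145 and 176 CPM against 81 and 111 CPM, and Myl10, a myosin regulatory light chain, 88 and 90 CPM against 60 and 48 CPM. The last gene, Bpifa2, is a secretory protein of salivary glands and is described below with others of its kind.

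**Figure D3:**
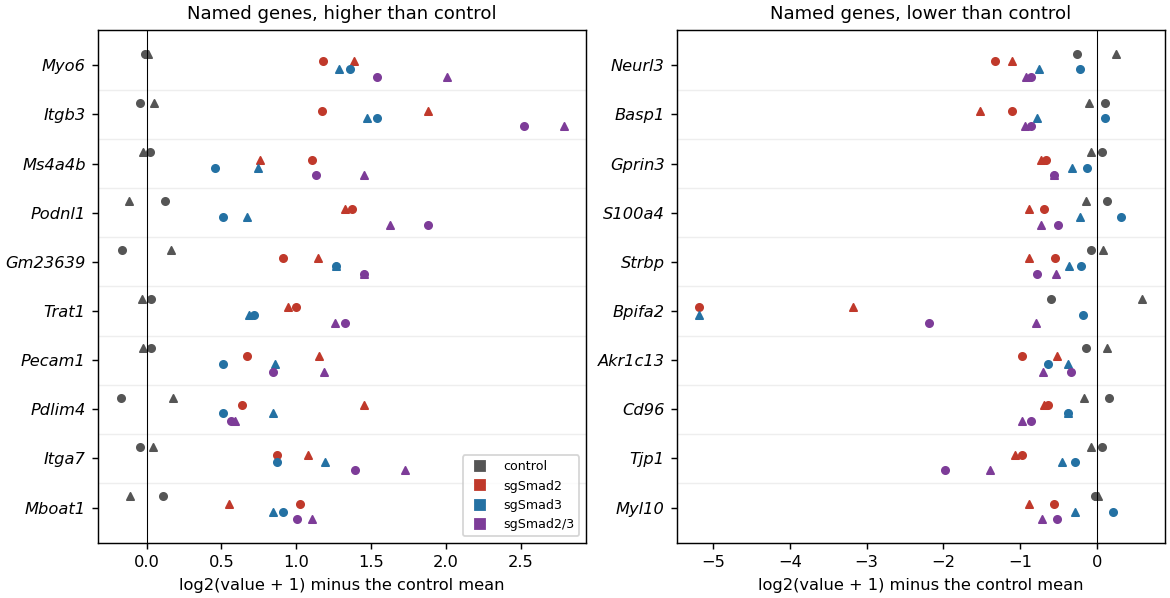
Level of the 10 named higher (left) and 10 named lower genes (right) in each of the 8 libraries, as log2(value + 1) minus the control mean, with circles for replicate 1 and triangles for replicate 2. By the rule that chose them the red sgSmad2 points lie apart from the gray control points, while the blue sgSmad3 points were not used by the rule and for Myo6 and Itgb3 lie beside the red ones.

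The single guides were compared directly. Of the 10190 genes, 5 were called higher in sgSmad2 than in sgSmad3 (0.0491%) and 0 were called lower (0%), and at an unadjusted limma p under 0.05 425 were higher (4.17%) and 521 lower (5.11%), together 946 (9.28%). Besides Acsl6 these were Cd40, Endod1, Fchsd2 and Ncmap. Cd40, a costimulatory receptor of the tumor necrosis factor receptor family, read 53 and 55 CPM in sgSmad2, 18 and 15 CPM in sgSmad3 and 42 and 43 CPM in control. Endod1, an endonuclease-domain protein, read 136 and 131 CPM in sgSmad2, 51 and 60 CPM in sgSmad3 and 117 and 107 CPM in control. Fchsd2, an F-BAR protein of endocytosis, read 127 and 139 CPM in sgSmad2, 64 and 59 CPM in sgSmad3 and 123 and 141 CPM in control. In these 3 genes the sgSmad2 libraries stood near the control and the sgSmad3 libraries well below both, as for Acsl6. Ncmap, a membrane protein known from myelin, read 76 and 137 CPM in sgSmad2, 32 and 39 CPM in sgSmad3 and 60 and 58 CPM in control. The count of 5 ran from 0 to 26 when single libraries were left out: it was 1 without sgSmad2 replicate 1, 26 without sgSmad2 replicate 2, 0 without sgSmad3 replicate 1 and 2 without sgSmad3 replicate 2.

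Adding the Smad2 guide to the Smad3 guide was set against adding it to the control by an interaction term, for which limma called 0 genes (at an unadjusted p under 0.05, 148 were positive, 1.45%, and 142 negative, 1.39%, together 290, 2.85%). The smallest adjusted p, 0.187, belonged to Id2, an inhibitor of E-protein transcription factors. Id2 read 185 and 204 CPM in control, 196 and 219 CPM in sgSmad2, 215 and 220 CPM in sgSmad3, and 619 and 548 CPM with both guides. Each single guide thus left Id2 close to the control values and both guides gave values far above them. The other 4 of the 5 genes with the smallest p had differences of -2.50 (Pou5f2), 1.76 (Nrn1, a small surface protein), -5.10 (the muscle gene Tnnc2) and -1.22 (Tnfaip8l1). Gzmb, which encodes granzyme B, read 14 and 10 CPM in control, 25 and 20 CPM in sgSmad2, 19 and 11 CPM in sgSmad3 and 95 and 76 CPM in sgSmad2/3.

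The genes that TGF-beta culture changes were taken from other libraries of the study, 3 of Treg cells and 3 of Th0 cells, which were cultured for the same 5 days with interleukin-2 alone. In those libraries 234 of 9937 genes (2.35%) passed a fold of 2 upwards in Treg and 191 (1.92%) downwards at a limma adjusted p under 0.05. Of the 234, 232 were kept here: 72 (31%) had both sgSmad2 values below both control values and 14 (6.03%) had both above, with a median log2 change of -0.17. Of the 191, 146 were kept: 44 (30.1%) were higher in sgSmad2 in this sense and 8 (5.48%) lower, with a median of 0.23. The filter can tilt this count and median upwards, since a gene low in control could be kept through its sgSmad2 values. Ly6c2, at 5 and 3 CPM in control and 11 and 15 CPM in sgSmad2, was such a gene. How many others there were was not counted. Over all kept genes the shares were 11.2% lower and 13.7% higher and the median 0.012. The medians of both sets thus lay on the side of Th0 cells, by a small amount, with the tilt described above for the set lower in Treg. The SD of library medians was 0.155 for the set higher in Treg, close to the size of its median, and 0.035 for the other set. Without sgSmad2 replicate 1 the median of the set higher in Treg was -0.0697, and that of the set lower in Treg 0.257. With the Smad3 guide the medians were -0.34 and 0.16, and with both guides -0.65 and 0.46. These comparisons share the control libraries, so the values are given side by side. Within the 2 sets, 1 gene, Myo6, was called in sgSmad2 against control.

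Of the 10 genes named for higher values, 6 belonged to the set lower in Treg (60%, against 1.43% of all kept genes), and of the 10 named for lower values 5 belonged to the set higher in Treg (50%, against 2.28%). All kept genes are a wider pool than the one these were drawn from, since named genes had no overlap and averaged 20 CPM or more. The 6 were Myo6, Itgb3, Ms4a4b, Podnl1, Pecam1 and Itga7. In the cell-type libraries Myo6 averaged 124 CPM in Th0 and 34.1 CPM in Treg, and Itgb3 70.1 and 12.6 CPM. The 5 were Neurl3, Gprin3, S100a4, Cd96 and Tjp1, and among them Tjp1 had the widest gap between Treg and Th0, at 3.83 on the log2 scale. Among set genes outside the named 20, Stx2, a syntaxin of membrane fusion, read 69 and 61 CPM in control and 40 and 37 CPM in sgSmad2. Cpd, a carboxypeptidase, read 161 and 162 CPM against 102 and 108 CPM. Ddx60, an RNA helicase of the interferon response, read 12 and 13 CPM against 21 and 29 CPM. In these 3 genes both sgSmad2 values lay on the side of the Th0 level. Ncmap, of the set higher in Treg, went the other way, at 60 and 58 CPM against 76 and 137 CPM.

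Among the 10 genes of each set with the widest gap between Treg and Th0, 2 of the set higher in Treg were lower in sgSmad2 without overlap and 1 was higher. Of the set lower in Treg 4 were higher and 0 lower. Over all kept genes 13.7% were higher and 11.2% lower in this sense, and counts out of 10 are small. For Ly6c2, 1 of the 4 higher genes, the control values alone would not have passed the filter. Gzmb and Ly6c2 were among those 4, and Trgv2, a gamma chain gene of the T cell receptor whose reads may be shared with relatives, was among the lower ones, at 72 and 56 CPM in control and 48 and 38 CPM in sgSmad2. Spsb1, an adaptor of ubiquitin ligases, read 56 and 73 CPM in control and 54 and 80 CPM in sgSmad2. Camk2n1, an inhibitor of calmodulin kinase, read 134 and 212 CPM against 132 and 218 CPM. Cdh1, which encodes E-cadherin, the ligand of integrin alpha E, read 217 and 116 CPM against 146 and 85 CPM. The groups overlapped in Spsb1, Camk2n1 and Cdh1, which were chosen as examples after their values were seen. A pair of classical TGF-beta targets that feed back on the pathway were also measured: Pmepa1 read 647 and 662 CPM in control and 637 and 716 CPM in sgSmad2 (0.05), and Skil 320 and 391 CPM against 297 and 320 CPM (-0.20). Itgae, the integrin alpha E chain (CD103), read 39 and 36 CPM against 37 and 58 CPM (0.30).

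**Figure D4:**
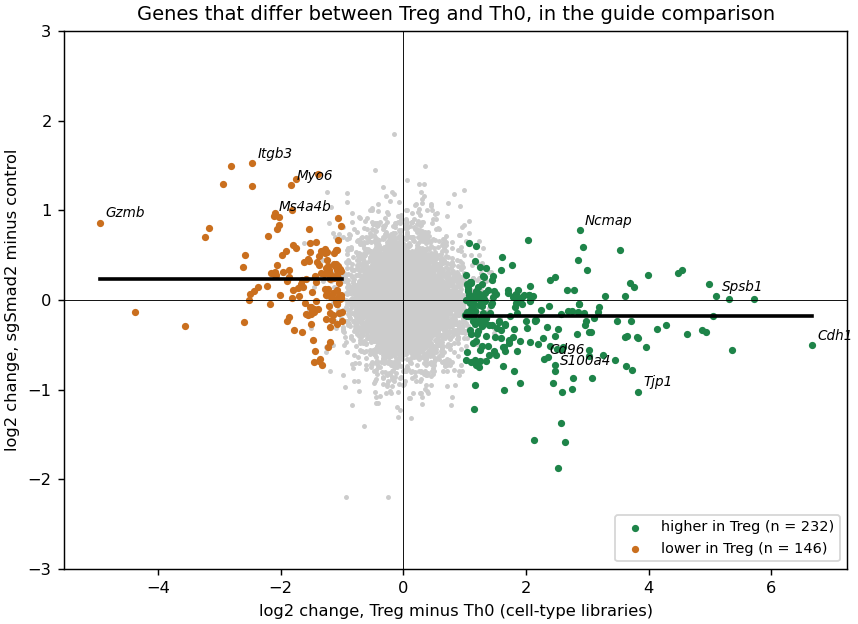
Log2 change of sgSmad2 against control (vertical axis) by log2 change of Treg against Th0 in separate libraries (horizontal axis), with the 232 genes higher in Treg in green, the 146 genes lower in Treg in orange, all others in gray and black lines at the median of each set. The green median lies at -0.17 and the orange median at 0.23.

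Genes of the TGF-beta pathway were read against the shares over all kept genes, 13.7% higher and 11.2% lower without overlap. Of 15 kept receptors and ligands among 24, 1 was higher and 1 lower (6.67% each), and of 16 kept feedback regulators among 18 likewise 1 and 1 (6.25% each). The median of the feedback regulators was 0.0034, but -0.14 without sgSmad2 replicate 2 and 0.12 without sgSmad2 replicate 1. The higher feedback gene was Smurf1, a ubiquitin ligase for Smads and receptors, at 25 and 24 CPM in control and 34 and 46 CPM in sgSmad2. The lower receptor gene was Acvr1, an activin and BMP receptor, at 10 and 12 CPM against 5 and 6 CPM. Of 25 kept TGF-beta targets of T cells among 33, 4 were higher (16%) and 2 lower (8%). Their median of -0.042 was -0.24 without sgSmad2 replicate 2 and 0.16 without sgSmad2 replicate 1, so 1 library set its sign. The higher ones included Id1, an Id protein that BMP and TGF-beta signals induce, at 3 and 7 CPM against 11 and 11 CPM. The control values of Id1 alone would not have passed the filter. Eomes, a T-box factor, read 29 and 37 CPM against 21 and 22 CPM. The list of TGF-beta targets mixes genes of opposite direction between Treg and Th0, such as Gzmb (-4.95 on the log2 scale) and Eomes (1.03). Its pooled median and counts therefore cannot show whether the response to TGF-beta fell or rose. Of 15 kept tissue Treg genes among 25, 4 were higher (26.7%) and 2 lower (13.3%), with a median of 0.092. The tissue list included Ccr2, a chemokine receptor near the detection limit in control, at 1 and 2 CPM against 12 and 5 CPM. Ccr2 passed the filter only through sgSmad2, so as a kept gene it had to be counted as higher. Maf, a transcription factor of effector Treg cells, read 101 and 130 CPM against 58 and 95 CPM.

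Lipid metabolism genes were listed because of the study's subject. Cholesterol synthesis had 25 of 25 genes kept, of which 11 were lower without overlap (44%, against 11.2% of all genes) and 1 higher, with a median log2 change of -0.20. Hmgcs1, which makes HMG-CoA for sterol synthesis, read 673 and 706 CPM in control and 537 and 453 CPM in sgSmad2. Msmo1, a sterol methyl oxidase, read 134 and 167 CPM against 107 and 105 CPM, and Mvd, mevalonate decarboxylase, 87 and 92 CPM against 55 and 72 CPM. The differences were small, no gene of the list passed adjustment, and 2 of the 25, Hmgcs1 (95% interval of the log2 change -0.81 to -0.16) and Msmo1 (-0.90 to -0.09), had an unadjusted limma p under 0.05. The gene that was higher was Insig1, which retains the sterol sensor in the endoplasmic reticulum. The median was -0.325 without control replicate 1 and -0.0984 without control replicate 2.

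The other lipid lists had medians close to 0, and their shares are again set against 13.7% higher and 11.2% lower over all kept genes. Of 11 kept acyl-CoA synthetases among 21, 3 were higher (27.3%) and 2 lower (18.2%), with a median of 0.0074, and none had an unadjusted limma p under 0.05. Of the 2 lower genes, Acsf3 read 5 and 5 CPM in control and 3 and 3 CPM in sgSmad2. Acsf3 passed the filter only through control, so as a kept gene it had to be counted as lower. Acsl5, the most abundant of those with the smallest p, read 110 and 133 CPM in control and 138 and 145 CPM in sgSmad2. Fatty acid synthesis had 20 of 30 kept, with 0 higher and 1 lower (5%), and a median of 0.051. The lower gene was Scd1, a stearoyl-CoA desaturase, at 85 and 125 CPM against 67 and 62 CPM. Fatty acid oxidation had 24 of 34 kept, with 4 higher (16.7%) and 7 lower (29.2%), and a median of -0.045. The lower genes included Hadh, an enzyme of beta-oxidation, at 62 and 78 CPM against 60 and 42 CPM.

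Cell cycle genes had 45 of 46 kept, of which 14 were higher without overlap (31.1%, against 13.7% of all genes) and 0 lower, with a median log2 change of 0.11 and none at an unadjusted limma p under 0.05. Rrm2, a subunit of ribonucleotide reductase, read 147 and 151 CPM in control and 189 and 177 CPM in sgSmad2. Cdc6, a replication licensing factor, read 50 and 50 CPM against 61 and 64 CPM. Without sgSmad2 replicate 1 the median was 0.166, and without sgSmad2 replicate 2 it was 0.079. Nuclear oxidative phosphorylation subunits had 73 of 74 kept, with 13 higher (17.8%) and 3 lower (4.11%) and a median of 0.065, and the mitochondrial genome 7 of 13, with 0 higher and 2 lower (28.6%) and a median of -0.22. Naive and quiescence genes had 28 of 29 kept, with 7 higher (25%) and 2 lower (7.14%) and a median of 0.099. Of these, Ly6c2, whose reads may be shared with Ly6c1, read 5 and 3 CPM against 11 and 15 CPM. Its control values alone would not have passed the filter.

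The other activation and stress lists are set against the same shares over all kept genes (13.7% higher, 11.2% lower). Interferon response genes had 29 of 42 kept, with 4 higher (13.8%) and 0 lower and a median of 0.13. The 4 included Oas3, at 5 and 1 CPM against 9 and 6 CPM, whose control values alone would not have passed the filter. Immediate early genes had 23 kept, with 2 higher (8.7%) and 4 lower (17.4%) and a median of -0.16. Nr4a2, an orphan nuclear receptor induced by antigen signals, read 18 and 47 CPM in control and 13 and 11 CPM in sgSmad2. Effector T helper genes had 16 of 39 kept, with 3 higher (18.8%) and 4 lower (25%) and a median of 0.13. The lower ones included Xcl1, at 10 and 5 CPM against 3 and 4 CPM. Xcl1 passed the filter only through control, so as a kept gene it had to be counted as lower. Of p53 targets 23 of 26 were kept, with 4 higher (17.4%) and 2 lower (8.7%) and a median of -0.030. The higher p53 targets included Phlda3, at 2 and 1 CPM against 5 and 8 CPM. Phlda3 passed the filter only through sgSmad2, so it had to be counted as higher. Of the integrated stress response 20 were kept, with 4 higher (20%) and 3 lower (15%). Glycolysis had 24 kept, with 1 higher (4.17%) and 3 lower (12.5%), and the hypoxia response 18 kept, with 2 higher (11.1%) and 3 lower (16.7%). None of the genes on these lists passed adjustment in sgSmad2 against control.

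**Figure D5:**
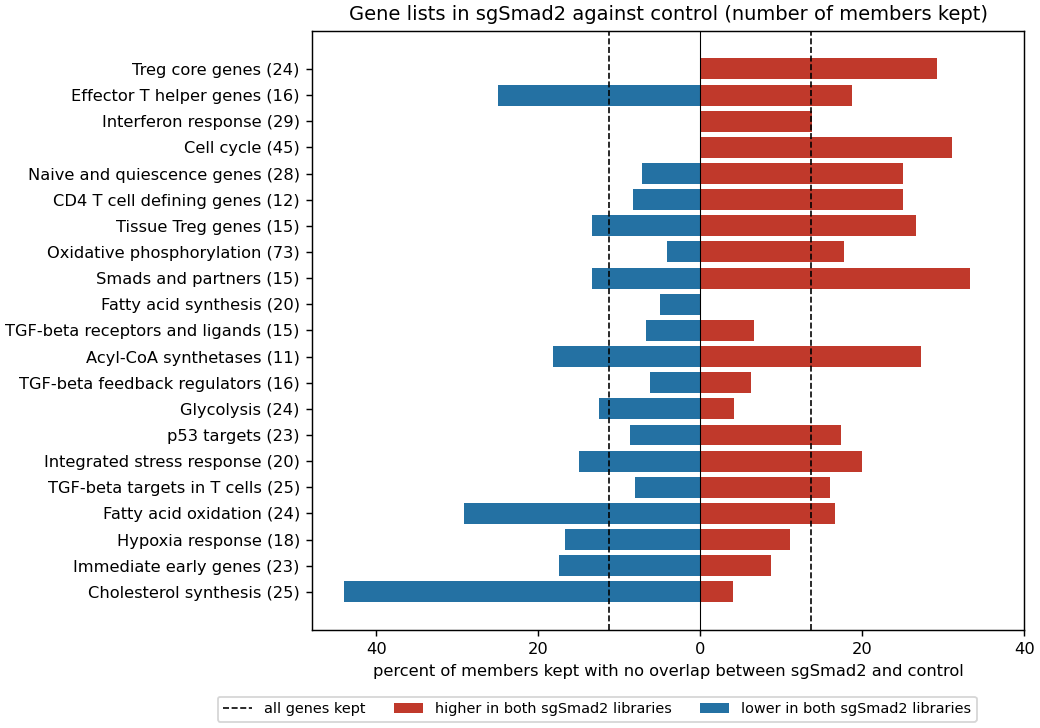
Share of the kept members of each gene list that had at least 10 of them, with both sgSmad2 values above (red, to the right) or below (blue, to the left) both control values, in percent, with the shares over all kept genes as dashed lines. Among the lists shown, the longest bars are the 44% of cholesterol synthesis genes that were lower and, to the right, the Smads and partners, of which 5 of 15 were higher.

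Transcripts of other cell types were present at low levels and some differed between the libraries. Bpifa2 read 23 and 54 CPM in control and 0 and 3 CPM in sgSmad2. Of 11 genes of salivary and lacrimal glands, a list made after the values were seen, 8 were kept, each lower in sgSmad2, and the summed level of the list was 67 and 139 CPM in control, 1 and 7 CPM in sgSmad2, 88 and 0 CPM in sgSmad3 and 17 and 51 CPM in sgSmad2/3. These sums also differed widely between the 2 libraries of sgSmad3. The gland genes read 0 to 3 CPM in sgSmad2 and passed the filter through the control libraries, so that kept members had to be lower and the count carries no weight. Of 11 skeletal muscle genes chosen in the same way, 5 were kept, each higher, and the summed level was 31 and 29 CPM in control, 75 and 204 CPM in sgSmad2, 259 and 38 CPM in sgSmad3 and 135 and 55 CPM in sgSmad2/3. Most of these 5 passed the filter through sgSmad2, which fixes their direction in the same way. None of the 13 kept gland and muscle genes belonged to the Treg and Th0 sets, which hold 2.28% and 1.43% of all kept genes. Bpifa2 and the muscle gene Tnnc2 were at 0 CPM in every Treg and Th0 library, so they could not enter a set. The absence of these genes from the sets therefore carries no weight. The part of gland and muscle genes in the other results was not tested.

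Markers of other blood cells are given by the levels listed. Counts without overlap are set against 13.7% higher and 11.2% lower over all kept genes, and these lists kept few genes. A listed 0 need not mean low expression here, since mt-Co2, mt-Co3, mt-Atp6 and mt-Nd4l, which every cell uses, were also listed at 0 in all 8 libraries. Of the B cell list 2 genes were kept, with 0 higher and 1 lower, and the summed level was 112 and 113 CPM in control and 84 and 98 CPM in sgSmad2, of which Ighm made up 94 and 90 CPM and 71 and 81 CPM. Ms4a1, a defining B cell gene, was listed at 0 in all 8 libraries. Of the myeloid list 1 gene was kept and the sums were 38 and 57 CPM against 47 and 71 CPM, with Itgam listed at 0. Of the list for CD8, NK and gamma-delta cells 5 were kept, with 1 higher and 3 lower, and the sums were 98 and 95 CPM against 95 and 114 CPM, with Ncr1 listed at 0. Klrd1, at 8 and 7 CPM against 3 and 4 CPM, passed the filter only through control and had to be counted as lower. For Trdc, at 6 and 6 CPM against 5 and 3 CPM, the sgSmad2 values alone would not have passed. Of the red cell list 1 was kept, Hba-a1, whose reads cannot be separated from those of its near-identical copy, at 12 and 12 CPM against 22 and 21 CPM, and the sums were 19 and 13 CPM against 26 and 24 CPM, with Alas2 listed at 0. In such bulk samples a change in the number of cells of a type and a change in RNA per cell cannot be told apart.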

How the data were processed

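RNA was extracted with TRIzol and libraries were made with Lexogen's QuantSeq 3′ forward kit, per the labels' protocols. Per the submitters' processing notes the build was mm10, and the tools they list, with no role, are Subread 2.0.1, STAR 2.7.9a, deepTools and Bowtie2. Annotation and use of strand were not given in the sources used here. Overlapping and antisense genes therefore cannot be told apart. The authors deposited both tables under the name TPM. The values deposited for cell types were CPM, since 100% were whole reads (within 0.01 of a read) after rescaling. Those deposited for the Smad experiment were a score, namely CPM that the authors had rounded to whole numbers; the plan of tests had taken both for TPM. An unnamed last line there (at most 7.7e-05% of a column) was not a gene. Of the IDs, 55154 of 55421 (Smad table) and 54409 of 54532 (cell-type table) matched a named gene of the reference, from which 27 symbols per table that had become dates were restored. Gene positions and promoters are on GRCm38.p6.

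Analysis started from these values. limma 3.58.1 (R 4.3.3) was fitted with an intensity trend to log2(value + 1) over all 8 Smad libraries, whose groups share 1 estimate of the spread, for the genes kept, with Benjamini-Hochberg adjustment over the 10190 genes and a threshold of 0.05. The fit was tested on simulated data. Folds on this scale understate the change of low genes: 3571 kept genes averaged under 20 CPM, and the median SE of the sgSmad2 change was 0.264. Treg and Th0 cells (3 libraries each) were compared in the same way, and edgeR 4.0.16 on the recovered reads called 1104 genes where limma called 1012. Named genes are Smad2, Smad3, Smad4, Smad7, Acsbg1, Acsl6 and Foxp3; called genes without overlap, filled up to 10 per direction by the smallest p among genes without overlap and with a mean of 20 CPM or more; up to 4 genes of each list; and the 5 with the smallest p in each other comparison. Other genes of the Treg and Th0 sets, and Pmepa1, Skil and Itgae, were chosen after their values were seen. The comparison and the 26 gene lists were chosen with earlier results of these data known; 2 more lists (gland and muscle) were added later. Alternatives were a pseudocount of 5, a minimum of 20 CPM, no filter, no trend, quantile scaling, the 4 libraries alone, a replicate block, and leaving out each library. ATAC libraries and the Acsbg1 experiment were not analysed here.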

Additional observations from a re-analysis of the deposited data

Results flagged for a closer look

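The expression of 5 genes differed between the single-guide groups by a test of that difference (sgSmad2 against sgSmad3, limma, adjusted over 10190 genes; 2 libraries each). The log2 differences were 1.66 for Cd40 (adjusted p = 0.039), 1.53 for Acsl6 (0.028), 1.50 for Ncmap (0.0468), 1.26 for Endod1 (0.039) and 1.10 for Fchsd2 (0.0468), with sgSmad2 higher in each. All 5 also belonged to the set higher in Treg than in Th0 cells, which holds 2.28% of all kept genes. The log2 differences between Treg and Th0 were 4.54 for Cd40, 2.07 for Acsl6, 2.87 for Ncmap, 2.47 for Endod1 and 1.89 for Fchsd2. Against the control, sgSmad2 differed by 0.34 for Cd40 (95% interval -0.22 to 0.90) and by 0.78 for Ncmap (0.24 to 1.32), and neither passed adjustment (limma adjusted p = 1 for both).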

How the results depend on the processing

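The count of 1 gene called in sgSmad2 against control became 0 with no filter, 0 with no intensity trend, 0 with the 4 libraries fitted alone and 2 with a replicate block (Myo6 and Itgb3), and leaving out single libraries gave 0 to 1. It was 1 with a pseudocount of 5, the minimum of 20 CPM and quantile scaling. The libraries share only a number: same-numbered control and sgSmad2 libraries deviated together (r = 0.301 over genes), the other pairs of groups hardly (0.00728 to 0.0721), and 2 pairs cannot show a pairing. Genes called in sgSmad2 against sgSmad3 (5) became 0 with no filter, 0 with no trend and 2 with the minimum of 20 CPM, with 0 to 26 over the left-out libraries and 6 under the block. The interaction called 0 genes in every setting run. The median of the set lower in Treg (0.231) moved to 0.189 with a pseudocount of 5 and to 0.080 without the 2-fold limit, and lay at 0.172 to 0.257 without single libraries; that of the set higher in Treg (-0.175) lay at -0.243 to -0.0697. Of 1533 values of 142 named genes, 26 in 19 genes changed sign. They were Camk2n1 with quantile scaling (-0.021) and the following without single libraries, each with its range over them. Without control replicate 1 the sign changed for Mthfd2 (-0.00399 to 0.55). Without sgSmad2 replicate 1 it changed for Smad7 (-0.36 to 0.042), Ldlrad4 (-0.77 to 0.11), Scd2 (-0.34 to 0.0042), Eno2 (-1.27 to 0.0075), Gapdh (-0.032 to 0.66), Ddit4 (-0.66 to 0.11) and Fcmr (-0.95 to 0.047). Without sgSmad2 replicate 2 it changed for Usp4 (-0.023 to 0.50), Fasn (-0.033 to 0.34), Cd247 (-0.0098 to 0.47), Itgae (-0.018 to 0.62) and Pmepa1 (-0.039 to 0.13), and for Acsbg1 (-0.28 to 0.38) also without control replicate 2. Without either sgSmad2 replicate 2 or control replicate 1 it changed for Foxp3 (-0.15 to 0.72), Fchsd2 (-0.085 to 0.11), Cst3 (-0.12 to 0.53), Spsb1 (-0.24 to 0.32) and Camk2n1 (-0.35 to 0.37). The cell cycle median ran from 0.079 to 0.166. The causes were not tested.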
